A study of Mus musculus with 36 samples.

Results

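The genes described are 9 long noncoding RNAs, transcripts that are not translated into protein: the nuclear-retained Malat1 and Neat1, the imprinted Meg3, Rian, Mirg, H19 and Kcnq1ot1, and the snoRNA hosts Gas5 and Snhg1. They were chosen by name from the 49315 genes of the deposited count files, and each matched 1 gene. Polyadenylated RNA was sequenced in 18 libraries from C2C12, an established line of mouse muscle precursor cells, proliferating and at passage 6 to 10. The 6 groups of 3 libraries came from 3 regimes (land, space with gravity and space without gravity), each without nanoceria or with nanoceria (cerium oxide nanoparticles, coated with serum) at 100 µg/ml. Regimes are named in the terms of the labels. All groups were grown in sealed experiment units, 3 for each group, and were fixed in RNAlater. The land run was made later in the same kind of hardware, so a difference of regime and a difference between 2 runs cannot be told apart. The p-values below measure the spread between these units.

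Malat1 and Neat1 are neighbouring genes. Malat1 RNA accumulates in nuclear speckles, bodies rich in splicing factors, and Neat1 RNA is the scaffold on which paraspeckles assemble. Imprinted genes are expressed from the copy inherited from a single parent: H19 and the growth factor gene Igf2 share control elements and use opposite parental copies, Kcnq1ot1 silences its neighbours, and Meg3, Rian and Mirg are maternally expressed from the domain that also holds Dlk1. Gas5 and Snhg1 carry small nucleolar RNAs (snoRNAs) in their introns, and their spliced RNAs are known targets of nonsense-mediated decay.

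H19, the 1 member called below, and Meg3, which had 66 of its 69 counts on land, each host a microRNA, and its mature arms are shown 5′ to 3′ with the seed (bases 2 to 8) in capitals. The miR-675 arms lie within H19 at chr7:142577112-142577133 and chr7:142577078-142577099 on the minus strand. The miR-770 arms lie within Meg3 at chr12:109563710-109563731 and chr12:109563744-109563765 on the plus strand. The sequences and positions are from RefSeq on GRCm38.p6, and the 4 seeds differ from one another.
mmu-miR-675-5p: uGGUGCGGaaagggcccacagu
mmu-miR-675-3p: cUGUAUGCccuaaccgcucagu
mmu-miR-770-5p: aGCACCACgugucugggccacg
mmu-miR-770-3p: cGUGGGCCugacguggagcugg

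The start regions of the snoRNA hosts are shown because the level of Gas5 varied across libraries most like that of a ribosomal protein gene, as described below. The mRNAs of ribosomal proteins are known to begin with a terminal oligopyrimidine tract, a C followed by further C and T bases. Each window of 60 bases begins 30 bases before a RefSeq start, at chr1:161035136-161035195 for Gas5 and chr19:8723457-8723516 for Snhg1, both on the plus strand of GRCm38.p6. Capitals mark a run of at least 5 C or T bases that begins with C within 5 bases of the start, searched on the transcript's strand.
Gas5: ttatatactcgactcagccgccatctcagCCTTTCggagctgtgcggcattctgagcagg
Snhg1: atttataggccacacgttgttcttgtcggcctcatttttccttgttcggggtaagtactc

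This Gas5 window held a run of 6 bases, CCTTTC, that began 1 base before the start, and the Snhg1 window held none. By the same rule 18.35% of 32851 RefSeq promoter windows held a run. Of the 7 members with a window, Gas5 and Meg3 each held a run in 1 of 2 windows, and Neat1 and H19 had no window in the table. A match describes the letters at an annotated start and is not a site.

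Depth was very uneven. The totals were 2986628 to 11378178 counts in 17 libraries and 23858 counts in space with gravity with nanoceria replicate 3, called the smallest library below, where 2786 of the 5850 genes with a mean of at least 50 counts were at 0. Of the members, only Malat1 and Kcnq1ot1 had counts in it. In the other 17 libraries 3 counts were worth 0.193 to 1.11 CPM, the counts scaled to a common library total. Between 23.8% and 76.3% of counts fell on 6 dominant genes (Lars2 and 5 genes with Gm names). The median share was 67.1% on land (49.6% to 76.3%) and 49.8% in space without gravity (40.7% to 70.3%). In space with gravity it was 33.0% (23.8% to 54.4%). The share thus went with regime, and fits that hold it as a covariate cannot fully tell it from regime. The myoblast markers Myf5 and Des had counts in all 18 libraries, whereas Myod1, which defines the lineage, was at 0 in 8. Library totals were scaled by edgeR (TMM, a trimmed mean of ratios between libraries), and tests are edgeR's quasi-likelihood test over 11558 genes with Benjamini-Hochberg adjustment at 0.05.

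Malat1 was the most abundant member and ranked 4 to 30 among all genes by count. Its merged exons form 1 block of 6983 bases on chromosome 19 (GRCm38, 5795690 to 5802672, minus strand). In the values that follow, replicates are in the order 1 to 3. Malat1 levels in space without gravity were 12650, 743 and 8618 CPM without nanoceria and 8529, 9782 and 6238 CPM with it. Malat1 levels in space with gravity were 6572, 10120 and 14780 CPM without nanoceria and 8453, 5637 and 1370 CPM with it, the last in the smallest library. Malat1 levels on land were 885, 1341 and 23200 CPM without nanoceria and 12150, 4684 and 8237 CPM with it. Land without nanoceria held both the highest library of the study and 2 of the lowest, and every pair of regimes overlapped. The low libraries, apart from the smallest, were space without gravity replicate 2 and land replicates 1 and 2, all without nanoceria. The dominant genes took 70.3%, 70.1% and 76.3% of counts in these 3, but also 73.3% in land with nanoceria replicate 1, where Malat1 stood at 12150 CPM. Over the 17 libraries Malat1 and the dominant share correlated at Pearson's r = -0.56 (Spearman's rho = -0.41), both computed from the same library totals. The part of that share in the Malat1 level was not tested.

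Neat1 is 1 merged exon block of 20771 bases beside Malat1 (chromosome 19, 5824708 to 5845478, minus strand). Neat1 levels in space without gravity were 97.9, 39.6 and 118 CPM without nanoceria and 150.5, 66.1 and 28.3 CPM with it. Neat1 levels in space with gravity were 53.2, 76.1 and 85.1 CPM without nanoceria and 118 (replicate 1) and 83.1 CPM (replicate 2) with it, and the smallest library had no count. Neat1 levels on land were 18.4, 9.72 and 101 CPM without nanoceria and 490, 45.1 and 71.6 CPM with it. Its lowest libraries, land replicates 1 and 2 without nanoceria, were also low in Malat1, and its highest was land with nanoceria replicate 1. The log2 CPM of Malat1 and Neat1 correlated at r = 0.71 (rho = 0.72) over 17 libraries that share their scaling with both genes. Per kilobase of merged exon the median level over these libraries was 1210 CPM for Malat1 and 3.66 CPM for Neat1. Both were counted per gene in polyadenylated RNA, so shorter isoforms and RNA without a poly(A) tail are not resolved.

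Neither nuclear-retained gene was called in any comparison. In space with gravity against land the log2 fold change was -0.19 ± 0.75 (SE) for Malat1 (edgeR adjusted p = 0.890), with a 95% interval from -1.78 to 1.39. For Neat1 it was -0.35 ± 0.71 (adjusted p = 0.772, interval from -1.85 to 1.15). Without land without nanoceria replicate 3 these values were 1.27 and 0.45 (adjusted p = 0.181 and 0.679), and without land with nanoceria replicate 1 they were 0.0073 and 0.57, so leaving out either library turned both signs. Against land, space without gravity gave -0.12 ± 0.75 for Malat1 and -0.16 ± 0.71 for Neat1. Withdrawal of gravity in space gave 0.07 ± 0.75 for Malat1 and 0.19 ± 0.71 for Neat1, which were -0.14 and -0.02 without the smallest library.

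Nanoceria gave no call for any of the 6 members tested, beside 0% of the 11558 genes called by edgeR in the averaged comparison, where the unadjusted p was under 0.05 for 756 genes and DESeq2 called 1. Averaged over regimes the log2 fold change was -0.30 ± 0.62 for Malat1, which turned to 0.68 without land without nanoceria replicate 3. For Neat1 it was 0.75 ± 0.58, and from 0.16 (without land with nanoceria replicate 1) to 1.28 in fits without 1 library. The largest nanoceria difference of a nuclear-retained gene was that of Neat1 on land, at 2.24 ± 1.05 (unadjusted p = 0.0476, edgeR adjusted p = 0.485). Land with nanoceria replicate 1 held 1323 of the 1768 Neat1 counts of its group, and the other 2 libraries lay between the lowest and highest without nanoceria.

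**Figure D1:**
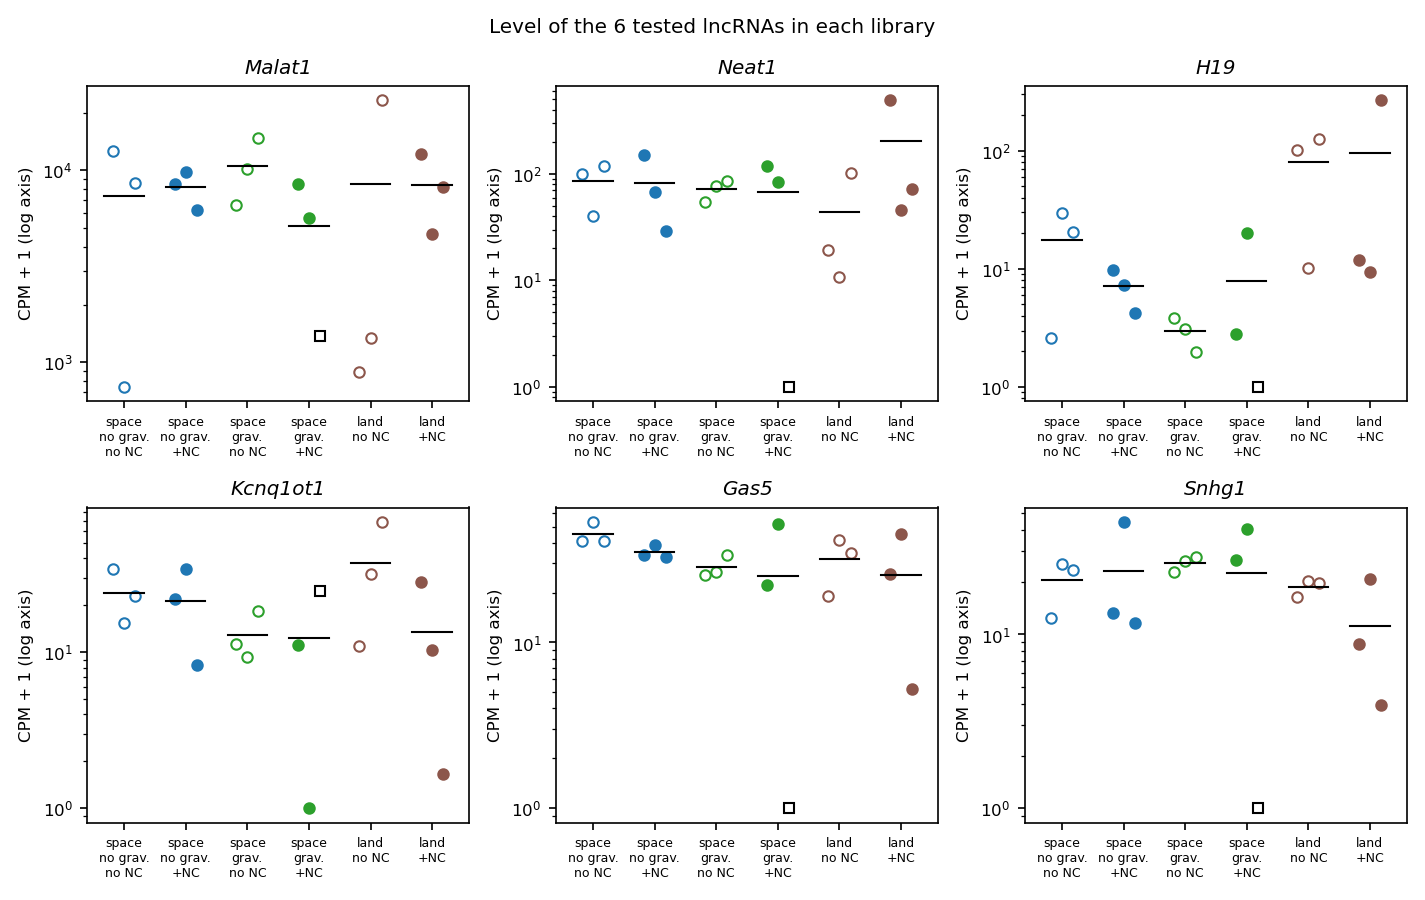
Levels of the tested long noncoding RNAs in every library as CPM + 1 on a log axis, by group (NC, nanoceria; open symbols without and filled with nanoceria; the black open square is the smallest library; horizontal lines are the means of 3 libraries; brown is land, green space with gravity, blue space without gravity). Malat1 spans 885 to 23200 CPM within land without nanoceria, and H19 is highest in 3 land libraries at 101 to 265 CPM.

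H19 was the only member called, lower in space with gravity than on land. Its merged exons form 4 blocks of 2372 bases on chromosome 7 (142575529 to 142578143, minus strand). H19 levels in space without gravity were 1.60, 28.5 and 19.6 CPM without nanoceria and 8.74, 6.31 and 3.22 CPM with it. H19 levels in space with gravity were 2.84, 2.06 and 0.988 CPM without nanoceria and 1.82 (replicate 1) and 18.97 CPM (replicate 2) with it, and the smallest library had no count. H19 levels on land were 101, 9.21 and 124 CPM without nanoceria and 10.7, 8.41 and 265 CPM with it. Land replicates 1 and 3 without nanoceria and replicate 3 with nanoceria lay above every space library, and the other 3 land libraries lay within the range of space. The counts in those 3 libraries were 719, 379 and 814 of 2619 in all.

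H19 fell by 4.31 ± 0.99 (SE) on the log2 scale in space with gravity against land, a 19.9-fold difference (95% interval from -6.40 to -2.23, edgeR adjusted p = 0.0126). It was 1 of 6 members called, beside 14.0% of the 11558 genes tested (7.22% called higher and 6.74% called lower). The call held in each of 18 fits without 1 library (adjusted p from 0.00927 to 0.0465), and the value was smallest, -2.64, without land with nanoceria replicate 3. It was lost with sample quality weights in limma voom (-2.56, adjusted p = 0.0785) and when the dominant share was added as a covariate (-3.98, adjusted p = 0.258), a fit that called 1 gene in all.

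In space without gravity H19 gave -3.09 ± 0.92 against the same land libraries (95% interval from -5.02 to -1.17, edgeR adjusted p = 0.0558) and was not called, beside 5.25% of genes called (2.81% higher and 2.44% lower). Without land with nanoceria replicate 3 it gave -1.44 (adjusted p = 0.259), and with all libraries DESeq2's test called it (-3.36, adjusted p = 0.00177). The direct comparison in space, without against with gravity, gave 1.22 ± 0.90 (95% interval from -0.68 to 3.12, adjusted p = 0.950). Nanoceria averaged over regimes gave 0.34 ± 0.71 (adjusted p = 0.965). The nanoceria values within regimes were -1.44 ± 1.24 in space without gravity, 2.20 ± 1.32 in space with gravity and 0.27 ± 1.19 on land, and the test of their difference gave an adjusted p of 0.878.

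Other measures of the libraries are set beside H19, and their part in its difference was not tested. H19 correlated with the dominant share at r = 0.59 (rho = 0.60) over 17 libraries. The 3 land libraries high in H19 had the 3 largest shares of mitochondrial counts outside the dominant genes, 1.16%, 1.44% and 1.45%. Summed over 8 fibroblast markers, the level was 329, 1248 and 2245 CPM in these 3 libraries. Over regimes that sum ran from 125.5 to 2245 CPM on land, from 81.0 to 460 CPM in space without gravity and from 35.7 to 267 CPM in space with gravity, where the smallest library was lowest. The fibrillar collagen gene Col1a1 carried most of it in 2 of the libraries (877 and 1750 CPM) and fell by 4.82 ± 1.14 on the log2 scale in space with gravity against land (edgeR adjusted p = 0.0140; 0.0528 without space with gravity with nanoceria replicate 1). Without land with nanoceria replicate 3 its value was -2.76 (adjusted p = 0.0496). Col1a1 was the 1 of 4 tested fibroblast markers called, all 4 had values below zero (median -1.10), and Lum was at 0 in 18 libraries, Dpt in 15 and Thy1 in 13. The sum over 10 myotube markers was 108.5, 15.1 and 7.16 CPM in the 3 libraries, beside 1.60 to 18.9 CPM in space without gravity. Myog was at 0 in 13 libraries. The 7 myoblast markers tested all had values below zero in space with gravity against land (median -0.44, 0 called), among them Itga7 at -1.21 (adjusted p = 0.0513) and Myod1 at -3.43 (adjusted p = 0.145). Itga7 was called in 2 of 8 other settings and in 1 of 18 fits without 1 library, and Myod1 in 1 of 8 other settings. Of 4 adipocyte, bone and blood markers tested, Bglap was called lower in space with gravity (-2.19, adjusted p = 0.0468), a call lost in 14 of 18 fits without 1 library. Bglap also lost its call in 5 of 8 other settings. These counts of called markers stand beside 14.0% of all genes called in this comparison (7.22% higher and 6.74% lower). In bulk samples fewer cells of a type and less RNA per cell cannot be told apart.

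**Figure D2:**
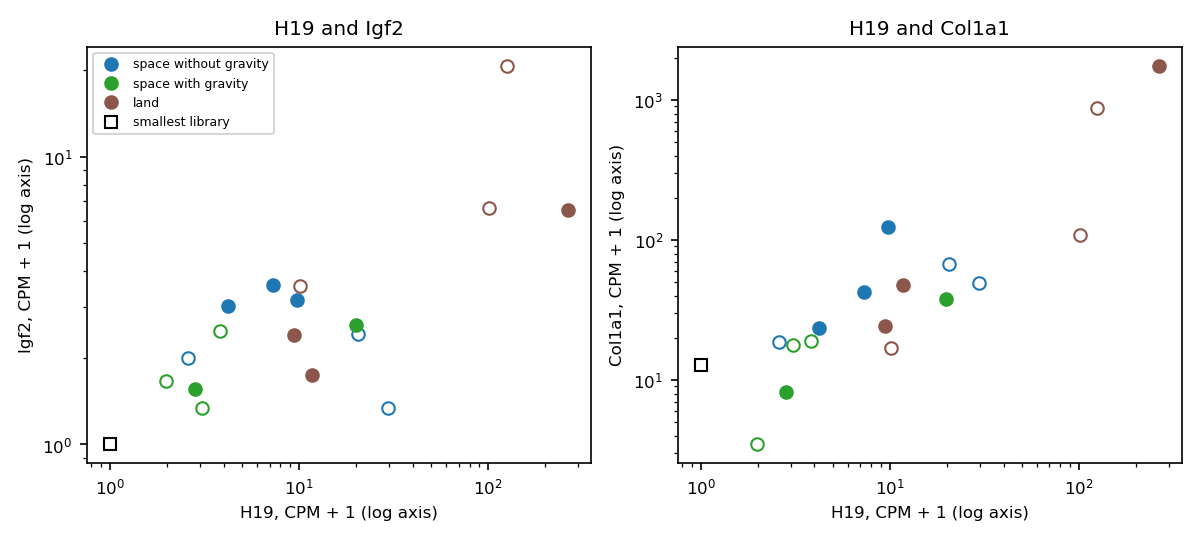
H19 level against Igf2 and against Col1a1, each as CPM + 1 on log axes, with 1 symbol per library (blue, space without gravity; green, space with gravity; brown, land; open without and filled with nanoceria; the black open square is the smallest library). The 3 libraries with 101 to 265 CPM of H19 are land libraries, and 2 of them have the highest Col1a1 levels, 877 and 1750 CPM.

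Igf2, the reciprocally imprinted partner of H19, was low throughout. On land it stood at 5.62, 2.56 and 19.7 CPM without nanoceria and at 0.740, 1.40 and 5.53 CPM with it, and the 3 highest were the same libraries that were high in H19. In space with gravity it ranged from 0.344 to 1.59 CPM in 5 libraries, from 48 counts in all. Igf2 fell by 2.36 ± 0.67 on the log2 scale in space with gravity against land (edgeR adjusted p = 0.0280). The call was lost without any of 4 libraries: space with gravity replicate 2 without nanoceria (adjusted p = 0.0617) or replicate 1 with it (0.107), and land replicate 3 without (0.0725) or with nanoceria (0.0862). The call was also lost in the fit with the dominant share as covariate (-3.62, adjusted p = 0.156), as were those of Lsp1 (0.254) and Col1a1 (0.173). Counting that fit, each of these calls was lost in 2 other settings, of 8 for Igf2 and of 9 for Lsp1 and Col1a1.

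Of 15 genes in the H19-Igf2 and Kcnq1 domains, 9 were tested, and in space with gravity against land 0 were called higher and 2 lower, beside 7.22% higher and 6.74% lower over all genes: Igf2 and Lsp1 (-2.11 ± 0.62, edgeR adjusted p = 0.0316), the gene of an actin-binding protein. The Lsp1 call was lost in 6 of 18 fits without 1 library (adjusted p up to 0.0936). The median log2 fold change of the 9 was -0.03, beside -0.04 over all genes. None of the 9 was called in space without gravity, with Igf2 at -1.74 and Lsp1 at -1.60 (adjusted p = 0.0966 and 0.0993).

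Kcnq1ot1 is listed as 1 merged exon block of 84395 bases on chromosome 7 (143212155 to 143296549, minus strand), antisense to the potassium channel gene Kcnq1, which had 10 counts in all. Kcnq1ot1 levels in space without gravity were 33.1, 14.4 and 21.9 CPM without nanoceria and 20.96, 33.0 and 7.28 CPM with it. Kcnq1ot1 levels in space with gravity were 10.2, 8.34 and 17.3 CPM without nanoceria and 10.1 and 0 CPM in replicates 1 and 2 with it, and the smallest library had 2 counts. Kcnq1ot1 levels on land were 9.97, 30.9 and 67.7 CPM without nanoceria and 27.4, 9.42 and 0.651 CPM with it. Space with gravity with nanoceria replicate 2 thus had no count among 7940811, which allows up to 0.478 CPM by counting error, and land with nanoceria replicate 3, the library highest in H19, had 2 counts. H19 and Kcnq1ot1 correlated at r = -0.23 (rho = -0.06) over 17 libraries.

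Kcnq1ot1 was not called. The log2 fold change was -1.24 ± 0.86 in space with gravity against land (edgeR adjusted p = 0.339), 0.03 ± 0.78 in space without gravity against land, and 1.28 ± 0.86 without against with gravity in space (95% interval from -0.53 to 3.09). Averaged over regimes nanoceria gave -0.85 ± 0.68 (adjusted p = 0.847). Of the genes it is known to silence, the cell cycle inhibitor gene Cdkn1c had 2 counts and Phlda2 none, whereas Slc22a18 passed the filter and was not called.

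Meg3, Rian and Mirg lie in that order on the plus strand of chromosome 12, and none passed the filter on low counts, so none was tested. Meg3 (109541001 to 109571726) had 7, 5 and 0 counts on land without nanoceria and 9, 11 and 34 with it. In space it had 2 counts in space without gravity with nanoceria replicate 1, 1 count in space with gravity without nanoceria replicate 1, and 0 in the other libraries. Land held 66 of 69 counts, and 5 of its 6 libraries were above every space library. The pooled level outside the dominant genes was 6.20 CPM on land and 0.0652 CPM in space, a ratio of 94.99 with an exact 95% interval from 31.1 to 472. That interval covers counting error only and no spread between units, and 49.3% of the Meg3 counts came from land with nanoceria replicate 3.

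Rian (109603940 to 109661716), a host of many snoRNAs, had 21 of its 39 counts in space with gravity without nanoceria replicate 1, and no count in space without gravity. On land it had 3, 2 and 1 counts without nanoceria and 0, 0 and 9 with it. Mirg (109729764 to 109749460), a host of a microRNA cluster, had 7 counts in 18 libraries, at most 2 in any library. Of the paternally expressed genes of the domain, Dlk1, Rtl1 and Dio3 had no count in any group. Levels of these RNAs in single libraries were near the limit of the depth.

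**Figure D3:**
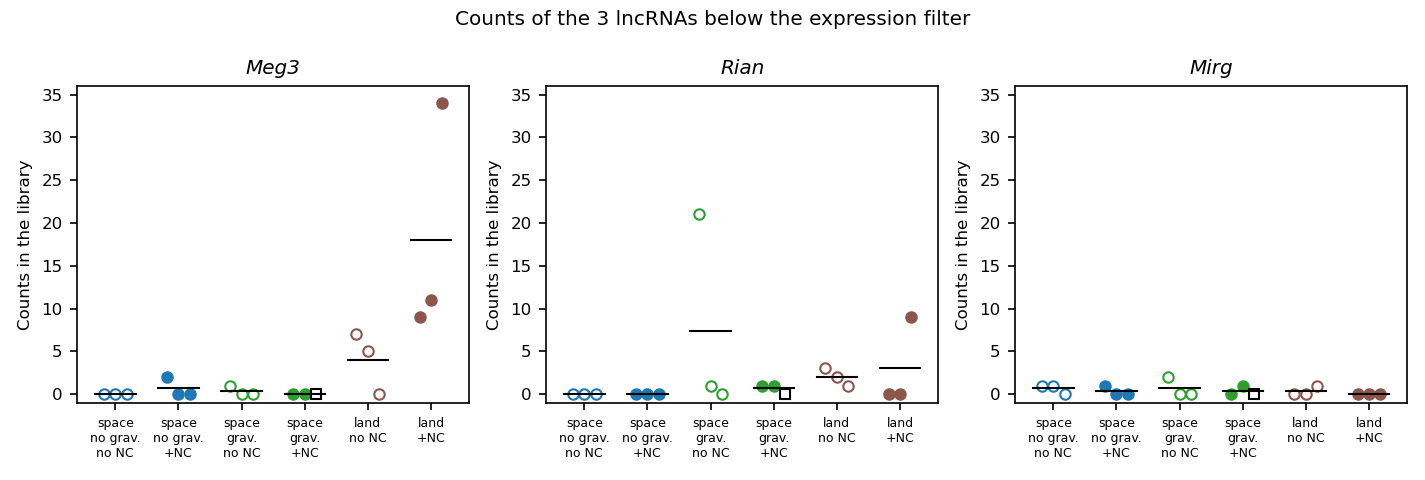
Counts of Meg3, Rian and Mirg in every library, by group (NC, nanoceria; open symbols without and filled with nanoceria; the black open square is the smallest library; horizontal lines are group means). Meg3 reaches 34 counts on land and at most 2 in space, and Rian reaches 21 counts in 1 space library.

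Gas5, whose RNA is known to rise in growth arrest, had the narrowest range of the tested members over 17 libraries, 12.4-fold from lowest to highest. Its annotated exons, merged over isoforms, form 3 blocks of 3760 bases on chromosome 1 (161034422 to 161038539, plus strand), of which 669 bases are shared with snoRNA entries that had no count. Gas5 levels in space without gravity were 39.9, 52.3 and 40.1 CPM without nanoceria and 32.5, 37.5 and 31.8 CPM with it. Gas5 levels in space with gravity were 24.4, 25.7 and 32.6 CPM without nanoceria and 21.3 and 50.9 CPM in replicates 1 and 2 with it, and the smallest library had no count. Gas5 levels on land were 18.1, 40.4 and 33.9 CPM without nanoceria and 24.8, 44.3 and 4.23 CPM with it. Apart from land with nanoceria replicate 3, where 13 counts gave the low value, 16 libraries lay between 18.1 and 52.3 CPM, and the regimes overlapped.

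Snhg1 exons, merged in the same way, form 1 block of 2969 bases on chromosome 19 (8723475 to 8726443, plus strand), of which 622 bases are shared with snoRNA entries that had no count. Snhg1 levels in space without gravity were 11.4, 24.3 and 22.6 CPM without nanoceria and 12.2, 43.4 and 10.7 CPM with it. Snhg1 levels in space with gravity were 21.9, 25.4 and 26.8 CPM without nanoceria and 25.7 and 39.4 CPM in replicates 1 and 2 with it, and the smallest library had no count. Snhg1 levels on land were 15.5, 19.4 and 18.7 CPM without nanoceria and 7.77, 19.8 and 2.93 CPM with it. With the smallest library left out, the 5 libraries of space with gravity lay above all 6 land libraries on this scale, though not on CPM computed outside the dominant genes.

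Neither snoRNA host was called. In space with gravity against land Snhg1 gave a log2 fold change of 0.91 ± 0.50 (95% interval from -0.14 to 1.97, edgeR adjusted p = 0.222) and Gas5 gave 0.04 ± 0.49 (interval from -0.99 to 1.07), whose sign turned with DESeq2 size factors, to -0.25. In space without gravity against land Snhg1 gave 0.61 ± 0.50 and Gas5 0.49 ± 0.49. Without against with gravity in space Gas5 gave 0.45 ± 0.49 and Snhg1 -0.31 ± 0.50. Averaged nanoceria values were -0.21 ± 0.40 for Gas5 and -0.17 ± 0.41 for Snhg1.

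**Figure D4:**
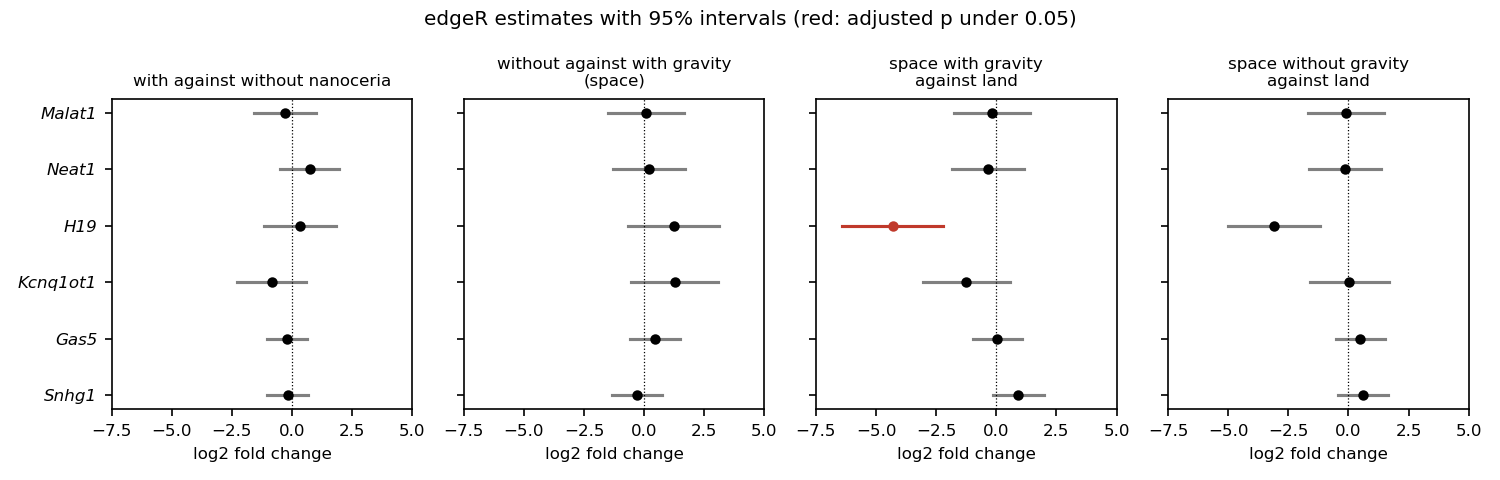
Log2 fold changes of the 6 tested members in the design's comparisons, with 95% intervals as bars; red marks an edgeR adjusted p under 0.05. Only H19 in space with gravity against land is red, at -4.31, and the intervals of Malat1 and Neat1 span zero in both comparisons with land.

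The classes were also set against each other within libraries, where a ratio of counts does not depend on the library's scaling. The ratio of nuclear-retained counts (Malat1 and Neat1) to snoRNA-host counts (Gas5 and Snhg1) ran from 10.2 to 1160 over 17 libraries, with a median of 147.5. Malat1 had a median of 115 counts for each Neat1 count, so the nuclear-retained sum is nearly all Malat1 and says little of Neat1. Without gravity in space the mean log2 value of this class ratio was 6.14 ± 2.45 (SD, n = 3) without nanoceria and 7.24 ± 0.34 with it. In space with gravity it was 7.59 ± 0.41 without nanoceria and 6.75 ± 1.08 (n = 2) with it. On land it was 6.01 ± 2.41 without nanoceria and 8.33 ± 2.00 with it. The spread within these groups was as large as the differences between most of them. The ratio of Gas5 to Snhg1 counts was steadier, from 0.830 to 3.49.

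**Figure D5:**
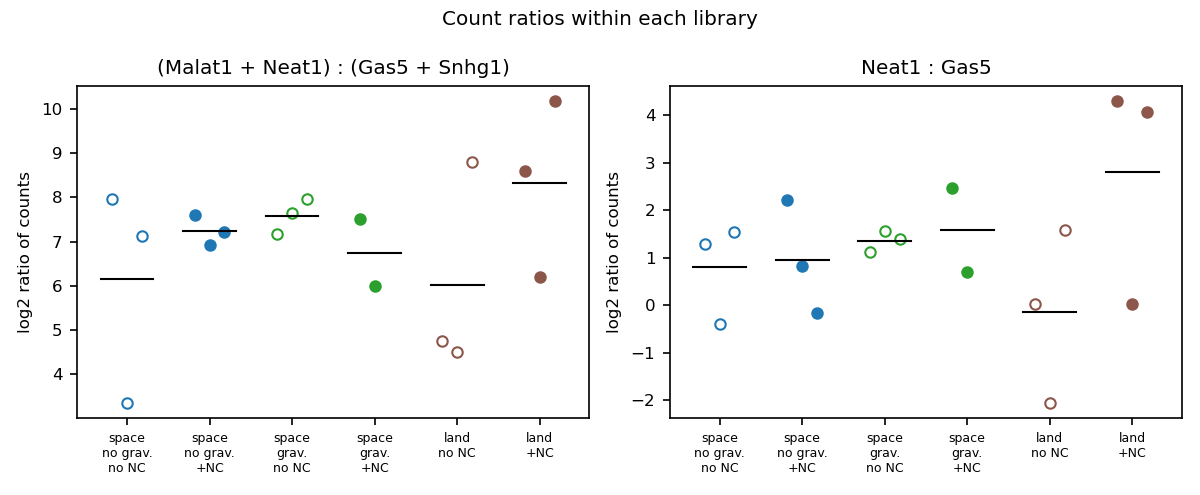
Log2 ratios of counts in every library, by group, for Malat1 plus Neat1 over Gas5 plus Snhg1 and for Neat1 over Gas5 (open symbols without and filled with nanoceria; horizontal lines are group means; the smallest library is left out because it had no snoRNA-host count). The first ratio has a mean of 6.01 ± 2.41 (SD) on land without nanoceria and 8.33 ± 2.00 with nanoceria.

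The genes whose log2 CPM followed each member most closely over the 17 libraries were taken from 4927 expressed genes, as a description of libraries that share scaling and depth. For Malat1 they were Eif4a1 (r = 0.925, rho = 0.814) and Mrfap1 (r = 0.918, rho = 0.662). For Neat1 they were Kdm6b (r = 0.845, rho = 0.637) and Tle3 (r = 0.840, rho = 0.686). For H19, Nt5dc2 (r = 0.937, rho = 0.971) was among them. Gas5 was followed most closely by Rps12, a ribosomal protein gene of the small subunit (r = 0.945, rho = 0.976). Next for Gas5 was Higd1a (r = 0.927, rho = 0.684). Kcnq1ot1 was followed by Sltm (r = 0.864, rho = 0.566) and Trip11 (r = 0.860, rho = 0.613). Snhg1 was followed by Ostc (r = 0.855, rho = 0.677) and Gch1 (r = 0.826, rho = 0.753).

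Of the other noncoding RNAs tested, 1 was called. Over all genes, 14.0% were called in space with gravity against land (7.22% higher, 6.74% lower) and 5.25% in space without gravity. Of 13 other lncRNAs tested, Tug1, a widely expressed lncRNA, rose by 3.99 ± 0.70 on the log2 scale in space with gravity against land (edgeR adjusted p = 0.00474) and by 3.34 ± 0.68 in space without gravity (adjusted p = 0.0169; 0.0522 without land without nanoceria replicate 1). The 6 land libraries had 73.9, 108 and 132 CPM without nanoceria and 626, 483 and 264 CPM with it. Space libraries had 354 to 7726 CPM, with the smallest at 584. Neither call held when the dominant share was a covariate (adjusted p = 0.227 and 0.153). None of 11 other snoRNA hosts tested was called in either comparison, and their medians were -0.55 and -0.26. The nearest to a call in space with gravity was Snhg5, at -1.93 ± 0.72 (adjusted p = 0.0765). Snhg5 was called lower there in 4 of 9 other settings, with values from -2.23 to -1.42 over the 9. It was also called in 1 of 18 fits without 1 library (edgeR adjusted p = 0.0222).

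Proteins that act with the members were read beside the 14.0% of all genes called in space with gravity against land (7.22% higher, 6.74% lower) and the 5.25% called in space without gravity. Of 18 paraspeckle proteins, 3 rose and 0 fell in space with gravity against land: Hnrnpm (2.28), Rbm12 (1.57) and Tardbp (1.24), a share near that of all genes, with a median of 0.06 over the list. Hnrnpm and Rbm12 also rose in space without gravity (1.90 and 2.05, both edgeR adjusted p = 0.0289). Exons of Hnrnpm, Rbm12, Tardbp and Son overlap those of other genes with counts, so their reads may be shared. The same holds for Tug1, described above, and for Zrsr1 and Copg2, described below. For Tug1 the overlap was small, 180 of 8325 exon bases with Morc2a, which had 6557 counts in all beside 303557 for Tug1. The Rbm12 call in space with gravity was lost in 11 of 18 fits without 1 library and that of Tardbp in 8, and in space without gravity those of Hnrnpm and Rbm12 in 7 each. Of 20 nuclear speckle proteins, Srsf1 (2.08), Son (1.54), U2af2 (1.29) and Sf3b1 (1.26) rose and Srrm1 fell by 1.59 in space with gravity, and Srrm1 alone was called in space without gravity (-1.55). In the fit with the dominant share as covariate none of the paraspeckle and speckle calls held in either comparison (adjusted p from 0.194 to 0.998). Over 9 other settings, that fit among them, Rbm12 and Tardbp lost the call in space with gravity in 5 each. U2af2 and Sf3b1 lost it in 4 each, Srrm1 in 3, Son in 2, and Hnrnpm and Srsf1 in 1 each. In space without gravity Srrm1 lost its call in 2 of 9, and Hnrnpm and Rbm12 in 1 each. Fits without 1 library kept Son in all 18 and lost Srsf1 in 7, U2af2 and Sf3b1 in 5 each, and Srrm1 in 2 (12 in space without gravity). Of 14 nonsense-mediated decay factors and 10 snoRNP proteins, 0 were called in either comparison.

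Of 11 imprint maintenance factors tested, Zfp57, a zinc finger protein that protects methylation at imprinted control regions, was called. It rose by 3.55 ± 0.56 on the log2 scale in space with gravity against land (edgeR adjusted p = 0.00288) and by 2.40 ± 0.55 in space without gravity (adjusted p = 0.0232). On land it stood at 1.69, 1.79 and 1.31 CPM without nanoceria and at 0.740, 0.401 and 0 CPM with it. These land values came from 12, 7 and 4 counts without nanoceria and from 2, 2 and 0 with it. Those with nanoceria were below the floor of 3 counts, so the size of the rise rests on low land counts. In space with gravity it stood at 13.7, 6.19 and 7.25 CPM without nanoceria and at 7.997 and 14.0 CPM in replicates 1 and 2 with it, all above land, and the smallest library had no count. Without gravity in space it stood at 1.00, 3.02 and 1.78 CPM without nanoceria, which overlapped land, and at 4.37, 9.28 and 13.5 CPM with it. The call in space without gravity was lost without any of 4 libraries (adjusted p from 0.0516 to 0.0568), and the call in space with gravity was lost with the dominant share as covariate (0.0991), as was that in space without gravity (0.0584). Counting that fit, the Zfp57 call in space without gravity was lost in 2 of 8 other settings. Of 16 other imprinted genes tested, Zrsr1 rose (2.16 ± 0.52) and Igf2r, the receptor that clears the Igf2 protein, fell by 2.46 ± 0.80 in space with gravity against land (adjusted p = 0.0149 and 0.0480), and their median was -0.81. These 2 of 16, like the 1 of 11 imprint maintenance factors, stand beside 14.0% of all genes called. In space without gravity Zrsr1 rose (1.78 ± 0.51) and Copg2 fell by 2.71 ± 0.67 (adjusted p = 0.0496 and 0.0304). Adding the dominant share as covariate, the calls of Igf2r, Zrsr1 and Copg2 were lost (adjusted p from 0.139 to 0.769). Counting that fit, Igf2r lost its call in 4 of 9 other settings. Zrsr1 lost its call in 1 of 9 in space with gravity and in 2 of 9 in space without gravity, and Copg2 in 1 of 8. Fits without 1 library lost Igf2r in 12 of 18 and Zrsr1 in 1, and in space without gravity Zrsr1 in 14 and Copg2 in 7. Every list had 0 genes called by edgeR in the averaged nanoceria comparison and in the comparison of gravity in space, where the unadjusted p was under 0.05 for 676 genes and DESeq2 called 11.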

How the data were processed

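The authors deposited raw counts per gene for 18 polyadenylated RNA libraries. Per the submitters' processing notes the tools were CASAVA, Trimmomatic 0.36.29, STAR, Subread and featureCounts, on GRCm38.p6. Per the labels' protocols, libraries were made with the NEBNext Ultra kit. Whether the counting used strand is not given in the sources used here, so reads of antisense partners cannot be told apart. The small RNA samples were not analysed here.

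Counts were fitted with edgeR 4.0.16 (R 4.3.3; TMM, filterByExpr, robust quasi-likelihood fit, 6 group means, 18 libraries, 12 residual degrees of freedom). The tests were two-sided, with Benjamini-Hochberg adjustment over 11558 genes, and the script was checked on simulated data. The common biological coefficient of variation was 0.659. DESeq2 1.42.0 and limma 3.58.1 served as alternatives. Floors of 3 counts and exact 95% intervals cover counting error only.

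The members and gene lists were chosen with earlier results of these data known. Named genes are all 9 members, each list's called genes (otherwise the 2 of smallest p), and the 2 genes most correlated with each tested member. One gene that this rule names is not reported here.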

Additional observations from a re-analysis of the deposited data

How the results depend on the processing

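No paired analysis was possible because no label pairs libraries across groups: their numbers only follow record order. Over 210 member values under other settings, 186 kept direction and side of the threshold, 2 lost a call, 4 gained one and 18 turned sign. Over 432 member values from 18 fits without 1 library, 400 kept both, 2 gained a call and 30 turned sign. The cause was not tested.

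Genes called by DESeq2's test numbered 1 for averaged nanoceria, 11 for gravity in space, 2691 for space with gravity against land (824 higher, 1867 lower), 1524 for space without gravity against land (508 higher, 1016 lower), 28 for nanoceria in space with gravity, 164 for nanoceria on land and 8 for nanoceria effects differing between regimes. DESeq2 size factors in edgeR gave 628 higher and 1558 lower, and 261 higher and 552 lower, against land, where the edgeR counts were 834 and 779, and 325 and 282; they moved the median of all genes to -0.39 and -0.28. With no filter on low counts the counts were 214 for averaged nanoceria, 229 for gravity, 1466 for space without gravity against land, 205, 253 and 502 for nanoceria in space without gravity, in space with gravity and on land, and 551 for differing effects. With the dominant share as a covariate 1 and 6 genes were called against land. In space without gravity against land voom called 1009 genes and the compared groups alone 358. Without 1 library the calls ran from 512 to 1658 in space with gravity against land (512 without space with gravity with nanoceria replicate 1), from 106 to 778 in space without gravity (106 without replicate 1 without nanoceria), and from 0 to 1 for nanoceria on land.

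Sign turned for Malat1 under averaged nanoceria with voom (0.36) and the covariate (0.17), and for H19 there with voom (-0.0046). Without the smallest library gravity in space gave -0.14 for Malat1 and -0.021 for Neat1. In space with gravity against land Malat1 gave 0.38 with voom and 0.032 without the smallest library, Neat1 0.47 with voom, and Gas5 -0.25 with size factors, -0.24 with DESeq2, -0.070 with voom and -0.14 at a mean of at least 50 counts. Over 9 other settings of that comparison Malat1 ran from -1.57 to 0.38 and Neat1 from -1.11 to 0.47. In space without gravity against land voom gave 0.84 for Malat1 and 0.62 for Neat1, and Kcnq1ot1 gave -0.19 with size factors and DESeq2, -0.10 at a mean of at least 50 counts and -0.52 with the covariate. The covariate gave -1.20 for Wdr25 and 0.21 for Nhp2 in space with gravity against land. H19 in space without gravity was called with size factors (-3.36, edgeR adjusted p = 0.0405), a mean of at least 50 counts (-3.33, adjusted p = 0.0357) and no filter (-3.04).

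Leaving out 1 library gave, in space with gravity against land, -0.47 to 1.27 for Malat1, -0.63 to 0.57 for Neat1, -0.38 to 0.43 for Gas5 and -0.93 to 1.35 for Wdr25. In space without gravity against land it gave -0.44 to 1.34 for Malat1, -0.56 to 0.75 for Neat1, -0.25 to 0.68 for Kcnq1ot1 and -3.39 to -1.44 for H19. For gravity in space it gave -0.25 to 0.35 for Malat1 and -0.20 to 0.47 for Neat1, and for averaged nanoceria -0.48 to 0.68 for Malat1 and -0.74 to 0.56 for H19.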
